A study of Mus musculus with 6 samples.

Results

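The voltage-gated sodium and calcium channel genes of the striatum were followed in Shank3 TG mice, which carry a transgene for Shank3 fused to enhanced green fluorescent protein (EGFP), and in WT mice. The members are the protein-coding genes of the GENCODE M21 annotation whose symbols name a sodium channel α or β subunit (Scn1a and its relatives), a calcium channel α1 subunit (Cacna1), an α2δ subunit (Cacna2d) or a calcium channel β subunit (Cacnb), with a mean of at least 10 normalized read counts over the 6 libraries. The 28 members described are among the 17605 genes that reached this mean and the 46078 genes of the table. A further 2 sodium channel α subunits fell below the mean. Scn4a, the skeletal muscle channel, had between 0 and 2 recovered reads per library, and Scn11a, a channel of pain-sensing neurons, had between 5 and 12. The members comprise 7 sodium channel α subunits, 3 sodium channel β subunits, 10 calcium channel α1 subunits, 4 α2δ subunits and 4 calcium channel β subunits.

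Striatal RNA of 3 Shank3 TG and 3 WT mice was sequenced, with 1 library per mouse. All mice were males aged 12 weeks on the C57BL/6J background, and the groups differ in the EGFP-Shank3 transgene alone as far as the labels and the methods state. The promoter of the transgene, the number of founder lines and the litters of these mice are not given in the sources used here. The values are gene read counts divided by a size factor of each library, called normalized read counts here, and the recovered reads on genes numbered 27689589 to 36647626 per library. Shank3 itself had 29891, 28309 and 26044 normalized read counts in TG replicates 1, 2 and 3, whereas WT replicates ranged from 12918 to 13865, so each library carries the genotype of its label. The log2 fold change of Shank3 was 1.05 (standard error 0.06, adjusted P = 7.04e-05 by limma). The values do not tell the transgene from the endogenous gene. The dissected tissue carried each of 16 medium spiny neuron markers, whose summed level lay between 202061 and 274329 normalized read counts. It also carried markers of cortical excitatory neurons (summed level between 42142 and 56826) and of the choroid plexus. The choroid plexus sum was 16650 in TG replicate 1, where the gene Ttr alone had 13701. It was 2327 in TG replicate 2 and 879 to 1288 in the other mice. In bulk tissue, fewer cells of a type and less RNA per cell cannot be told apart.

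Voltage-gated sodium channels open when the membrane depolarizes and carry the rising phase of the action potential. Their α subunit forms the pore and senses voltage, and single-pass β subunits set its gating, its amount at the surface and its adhesion to other cells. Voltage-gated calcium channels turn depolarization into calcium entry, which triggers transmitter release, dendritic signaling and gene expression. Their α1 subunit is the pore, the cytoplasmic β subunit brings it to the surface, and the extracellular α2δ subunit, the target of gabapentin in its α2δ-1 and α2δ-2 forms, sets its amount and place. Medium spiny neurons of the striatum rest at very negative potentials and fire in bursts when cortical input lifts them toward threshold. Shank3, a scaffold of the excitatory postsynapse, binds L-type calcium channels of the Cav1.3 kind through its PDZ domain.

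The first question was which channel genes the dissected striatal tissue expressed, on a scale that can be compared between genes. Levels were therefore divided by the length of the merged exons of each gene and are given as normalized read counts per kb. Because the tissue also carried cortical markers, the levels and their order are not those of striatal neurons alone. The levels ranged from 7340 per kb for Scn4b, above 99.6% of the genes tested, to 1.83 per kb for Scn10a, above 0.194% of them. Scn4b, which encodes the β4 subunit, is known to be abundant in medium spiny neurons, and the tail of β4 can block the open pore and give a resurgent current when it leaves. Its gene lies on chromosome 9 of GRCm38 (45138395 to 45154152, plus strand), 8.33 kb downstream of Scn2b (45117782 to 45130070, plus strand), the gene of the β2 subunit, which had 2398 per kb. Scn10a (chromosome 9, 119608456 to 119719322, minus strand) encodes Nav1.8, a channel of pain-sensing neurons.

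The promoters of these 3 genes are shown because they belong to the most abundant member, to its neighbour and to the least abundant member. Each is the RefSeq window of GRCm38.p6 from 250 bases before to 50 bases after a transcription start, written 5′ to 3′ on the strand of the gene, with every CpG dinucleotide (the letters CG, which read the same on both strands) in capitals.
Scn4b, chr9:45138374-45138673, plus strand: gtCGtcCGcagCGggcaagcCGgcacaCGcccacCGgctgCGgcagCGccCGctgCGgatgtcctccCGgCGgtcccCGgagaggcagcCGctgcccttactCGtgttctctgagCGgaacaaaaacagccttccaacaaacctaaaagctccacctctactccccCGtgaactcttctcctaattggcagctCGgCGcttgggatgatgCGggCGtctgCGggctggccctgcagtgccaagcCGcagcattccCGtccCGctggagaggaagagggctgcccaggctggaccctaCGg
Scn2b, chr9:45117626-45117925, plus strand: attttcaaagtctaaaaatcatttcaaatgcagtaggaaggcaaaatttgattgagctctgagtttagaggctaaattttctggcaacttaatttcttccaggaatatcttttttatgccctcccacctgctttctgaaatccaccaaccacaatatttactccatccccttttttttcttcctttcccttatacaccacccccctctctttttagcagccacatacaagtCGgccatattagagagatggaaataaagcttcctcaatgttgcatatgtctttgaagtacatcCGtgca
Scn10a, chr9:119718983-119719282, minus strand: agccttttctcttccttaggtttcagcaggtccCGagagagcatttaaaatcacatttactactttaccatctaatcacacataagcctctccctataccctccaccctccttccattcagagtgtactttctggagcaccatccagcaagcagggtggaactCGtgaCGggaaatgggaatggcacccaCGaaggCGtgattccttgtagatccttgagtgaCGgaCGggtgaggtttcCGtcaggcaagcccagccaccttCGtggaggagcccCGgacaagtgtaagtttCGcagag
The Scn4b window holds 26 CpG dinucleotides, as many or more than which are found in 16.9% of the 32851 promoter windows of all genes. The Scn2b window holds 2, and 23.3% of all windows hold as few. Scn10a lies between them with 11, whereas the median of all windows is 7. The neighbours Scn2b and Scn4b, both among the 3 most abundant members per kb, thus differ widely in this letter pair. None of the 3 windows contains the TATA box letters TATAAA or the GC box letters GGGCGG on either strand, which 13.6% and 35.7% of all windows contain.

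RefSeq windows were found for 22 of the 28 members. Of the 17 matched members with a mean of at least 1000 normalized read counts, a bound chosen after the values were seen, 13 had at least 1 window with 20 or more CpG dinucleotides, as did 28.8% of all genes with a window. The exceptions were Scn1a, Scn2a, Scn2b and Cacna1e. Of the 5 matched members below that mean, 0 had such a window. Several members have more than 1 window, which raises their chance of reaching 20, and letters in a window do not show which start is used in these mice.

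**Figure D1:**
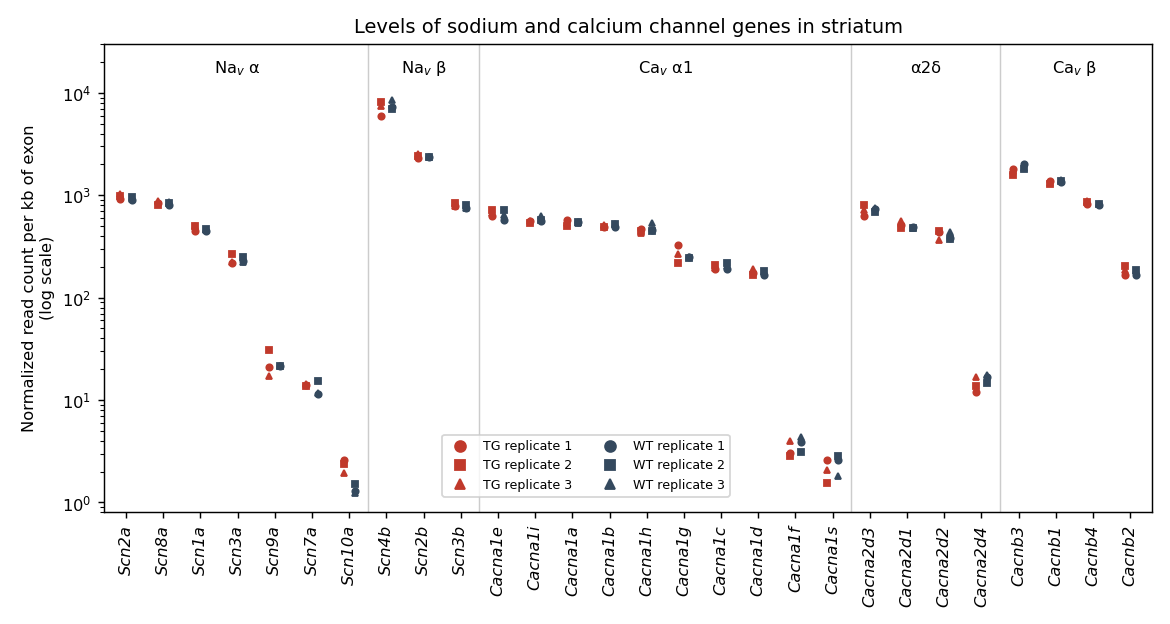
Normalized read counts per kb of merged exon (log scale) of the 28 channel genes, grouped by family and ordered by level, with 1 point per mouse (red, Shank3 TG; dark blue, WT). Scn4b stands highest at 7340 per kb over all mice, and the points of TG and WT mice stand at nearly the same height for most genes.

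Among sodium channel α subunits, 3 genes made up most of the level per kb. Scn2a, which encodes Nav1.2 of unmyelinated axons and dendrites, had 978 ± 59.6 per kb (SD, n = 3) with the transgene and 924 ± 37.4 (SD, n = 3) without it. Scn8a, which encodes Nav1.6 of axon initial segments and nodes, had 842 ± 47.0 and 831 ± 31.6 (SD, n = 3 each). Scn1a, whose product Nav1.1 serves fast-spiking interneurons, had 484 ± 33.5 and 459 ± 10.2 (SD, n = 3 each). As shares of the summed level of the 7 α members, Scn2a held between 36.9% and 38.5%, Scn8a between 30.6% and 34.4% and Scn1a between 18.1% and 19.3% over the 6 mice. Scn3a, the mainly embryonic Nav1.3, followed with 8.38% to 10.3%. At a much lower level, Scn9a (Nav1.7) had 22.3 per kb, Scn7a (the sodium-sensing Nax) 13.5 and Scn10a 1.83 over all mice.

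The 3 sodium channel β members summed to more per kb than the members of any other family, between 9111 and 11574 per mouse, against 2401 to 2683 for the α members. Scn4b held between 65.7% and 73.1% of this β level, Scn2b between 20.3% and 25.6% and Scn3b (β3) between 6.52% and 8.68%. The order of the 3 genes was the same in each of the 6 mice.

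Calcium channel α1 subunits were spread more evenly. Cacna1e, which encodes the R-type Cav2.3, led with 673 ± 45.8 per kb (SD, n = 3) with the transgene and 649 ± 74.9 (SD, n = 3) without it. The T-type Cacna1i (Cav3.3), the P/Q-type Cacna1a (Cav2.1), the N-type Cacna1b (Cav2.2) and the T-type Cacna1h (Cav3.2) followed with 568, 539, 506 and 464 per kb over all mice. The third T-type gene, Cacna1g (Cav3.1), had 260 per kb. The neuronal L-type genes Cacna1c (Cav1.2) and Cacna1d (Cav1.3, the binding partner of Shank3) had 202 and 177. The retinal Cacna1f (Cav1.4) and the skeletal muscle Cacna1s (Cav1.1) had 3.52 and 2.25 per kb.

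Of the α2δ subunits, Cacna2d3 was highest (721 per kb over all mice), before Cacna2d1 (499), Cacna2d2 (408) and Cacna2d4 (15.2), the form of the retina. Of the calcium channel β subunits, Cacnb3 had 1795 per kb, Cacnb1 1355, Cacnb4 831 and Cacnb2 182. When the length of the longest coding transcript replaced that of the merged exons, 6 members moved within the order of their family, all of them calcium channel α1 subunits. Among them Cacna1a, Cacna1i, Cacna1b and Cacna1h exchanged places, as did Cacna1g and Cacna1c, so these neighbours cannot be ranked firmly. The first place of each family was kept.

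**Figure D2:**
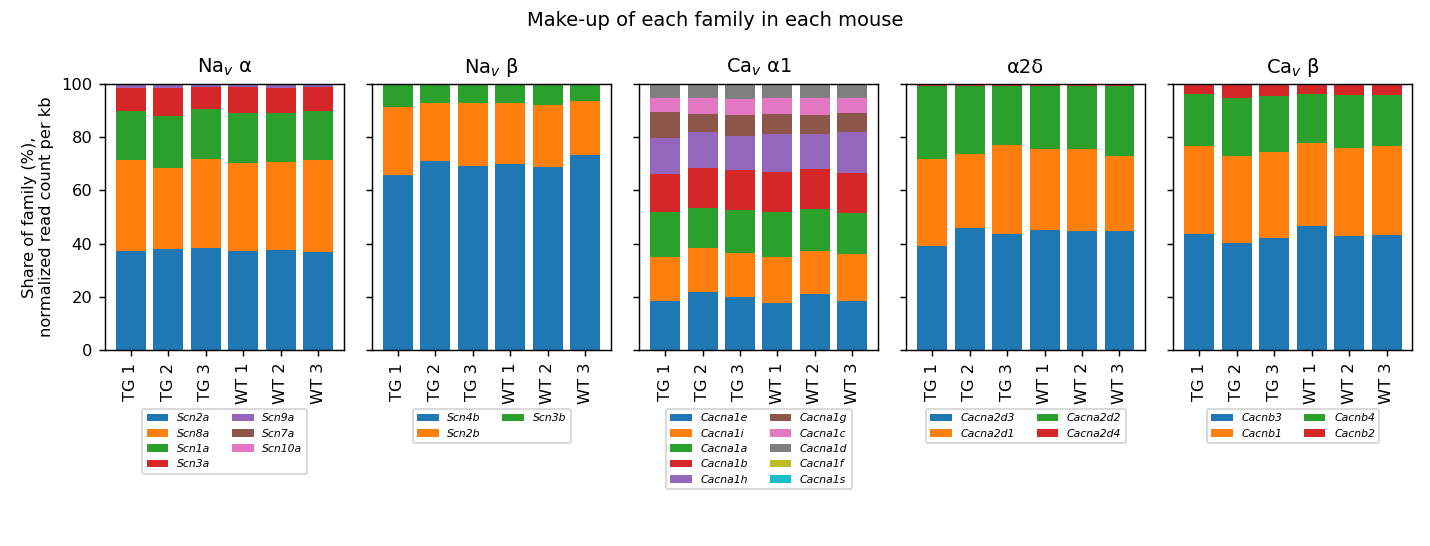
Share (%) of each gene in the normalized read count per kb summed over the members of its family, 1 stacked bar per mouse (TG and WT replicates 1 to 3). The bars are nearly alike across mice, and the Scn4b share of the β level lies between 65.7% and 73.1%.

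The second question was whether any channel gene differed between the genotypes. At an adjusted P value under 0.05 by limma, 0 of the 28 members were called, higher or lower, where 0.00568% of all genes tested were called, namely Shank3. The adjusted P values of the members lay between 0.971 and 0.991. EdgeR's quasi-likelihood test and DESeq2, both on recovered reads, called 0 members as well, where they called 1 and 7 of all genes tested. At an unadjusted P value under 0.05, limma had 1 member, Scn10a, higher and 0 lower, against 1.98% of all genes higher and 2.33% lower. This is 3.57% of the members, near the 4.31% of all genes in either direction. EdgeR had the same 1 member and DESeq2 had 0. Complete separation of the 3 TG from the 3 WT values was seen for 1 higher member, Scn10a, and 1 lower member, Cacna1i, together 7.14% of the members, whereas 5.06% of all genes were higher, 5.05% lower and 10.1% either without overlap. The shares of the members in both counts were thus no larger than those of the genes in general.

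The intervals show how large a difference could have gone unseen. For the 22 members with a mean of at least 1000 normalized read counts, the log2 fold change lay between -0.13 (Cacnb3) and 0.10 (Cacna1g), or 0.911-fold to 1.08-fold. Their 95% intervals by limma all included 0, and 19 of the 22 lay wholly inside 1.2-fold in both directions. The 3 that did not were Scn4b, Cacna1g and Cacnb3, which lay inside 1.5-fold. For the 6 members below that mean, the intervals reached from -0.88 (Cacna1s) to 1.31 (Scn10a), and 3 of the 6 lay inside 1.5-fold. The median log2 fold change of all members was 0.02, against -0.0018 over all genes tested, with 16 members above 0 and 12 below it. All of these values are on the scale log2(normalized read count + 1), which understates changes of genes with low counts.

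**Figure D3:**
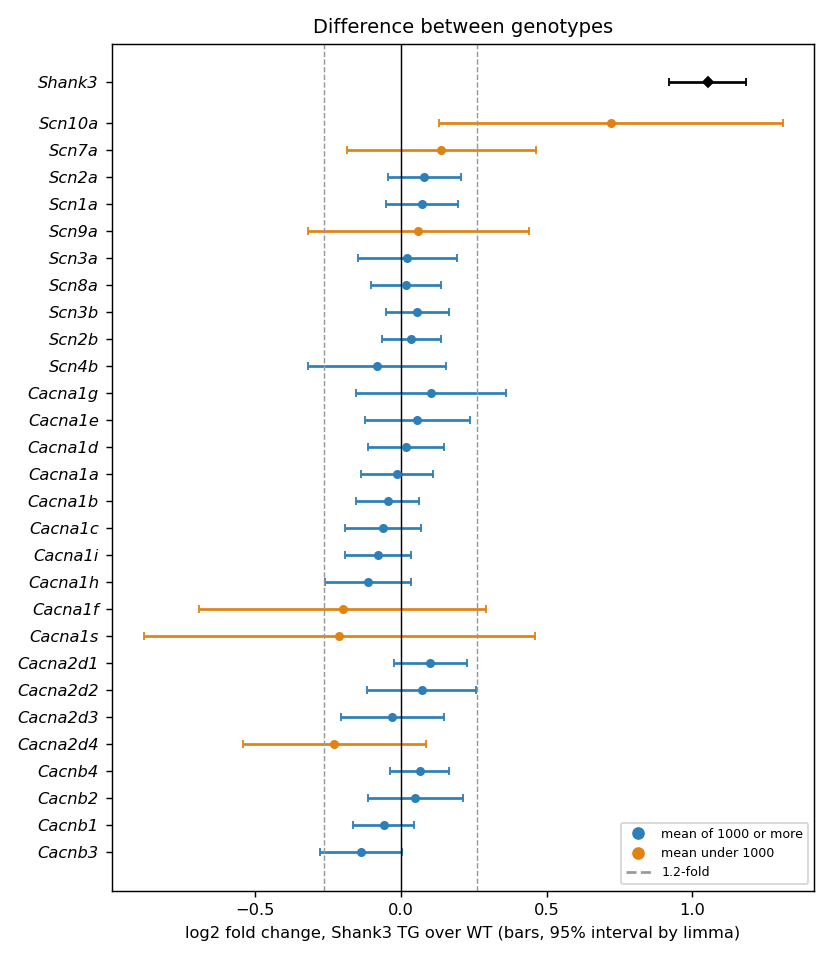
Difference (log2, TG minus WT) with its 95% interval by limma for each channel gene, with Shank3 on top for scale (dashed lines, 1.2-fold; n = 3 mice per group). The blue intervals, of the 22 abundant genes, all include 0, and the wide orange ones belong to the 6 genes with few reads.

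Each of the 7 sodium channel α members had a log2 fold change above 0, from 0.02 for Scn8a to 0.72 for Scn10a, with a median of 0.07. Over all genes tested 49.2% were above 0. For Scn3a, Scn8a and Scn9a the sign turned with 1 mouse left out, so the common direction rests on small differences. Scn2a had 11646, 12563 and 13152 normalized read counts in TG replicates 1, 2 and 3, against 11343, 12279 and 11658 in WT replicates 1, 2 and 3. Its log2 fold change was 0.08 (standard error 0.06). Scn1a had 4961, 5604 and 5610 with the transgene, against 5035, 5249 and 5080 without. The log2 fold change was 0.07 (standard error 0.06). In both genes TG replicate 1 lay within or below the WT range while the other TG mice lay above it. Scn8a showed no such split, at 13269, 12526 and 14007 with the transgene, against 12533, 13272 and 13481 without.

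Scn10a was the member with the smallest P value. It had 20.6, 19.1 and 15.6 normalized read counts in TG replicates 1, 2 and 3 and 10.3, 12.2 and 9.82 in WT replicates 1, 2 and 3. These stand for 24, 17 and 16 recovered reads with the transgene, against 9, 13 and 10 without, so each TG mouse lay above each WT mouse on a very small number of reads. Its log2 fold change was 0.72 (standard error 0.27, unadjusted P = 0.0209, adjusted P = 0.971 by limma), and the exact two-sided permutation test gave P = 0.1, the smallest that 3 mice against 3 allow. Within a genotype its SD was 0.441 times the one that counting error alone would give.

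Among the other genes of the sodium channel cluster on chromosome 2 (65457118 to 66784914, with Scn3a, Scn2a, Scn1a, Scn9a and Scn7a in this order), Scn9a was uneven. It had 270, 396 and 221 with the transgene, against 275, 273 and 278 without, so the high mean of TG mice came from replicate 2. Scn3a was also highest in TG replicate 2, with 3346 against 2727 to 3083 in the other mice. For Scn7a the log2 fold change was 0.14 (standard error 0.15), and its groups overlapped.

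The sodium channel β members had log2 fold changes between -0.08 and 0.06. Scn4b had 29819, 40098 and 36905 normalized read counts in TG replicates 1, 2 and 3, against 35869, 34553 and 42174 in WT replicates 1, 2 and 3. TG replicate 1 was the lowest of all mice and WT replicate 3 the highest, and the log2 fold change of -0.08 (standard error 0.11) turned to 0.04 without TG replicate 1. Scn2b had the smallest SD within a genotype of all members, at 10873, 11339 and 11719 with the transgene, against 11041, 11058 and 10958 without, and its 95% interval, from -0.06 to 0.14, lay inside 1.2-fold. Scn3b ranged from 4244 to 4550 with the transgene and from 4088 to 4387 without.

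Among calcium channel α1 subunits, 7 of 10 had a log2 fold change below 0. Cacna1i was the member whose TG values all lay below the WT values, with 5505, 5314 and 5533 against 5539, 5595 and 6136. The highest TG value and the lowest WT value differed by less than the spread within either group, and the log2 fold change was -0.08 (standard error 0.05, unadjusted P = 0.159 by limma, exact permutation P = 0.1). The separation was lost when library totals replaced the size factors of the authors. Cacna1h had 4538, 4375 and 4133 with the transgene, against 4492, 4418 and 5205 without. The log2 fold change was -0.11 (standard error 0.07), which was -0.04 without WT replicate 3. Cacna1g, the T-type channel best known from thalamic relay neurons, had 3341, 2197 and 2700 with the transgene, against 2557, 2482 and 2511 without. TG mice again held both the highest and the lowest value, and the log2 fold change of 0.10 (standard error 0.12) became -0.05 without TG replicate 1 and 0.26 without TG replicate 2.

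For the neuronal L-type channels, of which Cav1.3 binds Shank3, no difference was detectable. Cacna1d had 2205, 2121 and 2407 normalized read counts with the transgene, against 2117, 2282 and 2241 without. The log2 fold change was 0.02 with a 95% interval from -0.11 to 0.15. Cacna1c had 3992, 4408 and 4144 with the transgene, against 4079, 4649 and 4351 without. The log2 fold change was -0.06 with an interval from -0.19 to 0.07. The presynaptic Cacna1a and Cacna1b had log2 fold changes of -0.01 and -0.04, and Cacna1e, the most abundant α1 gene, 0.06 (interval from -0.12 to 0.24). Cacna1e had 15935, 18224 and 16801 with the transgene, against 14537, 18312 and 16265 without, and varied more between WT mice than between genotypes. Cacna1f had means of 29.8 and 34.3 normalized read counts, Cacna1s of 13.6 and 15.9, and their intervals reached beyond 1.5-fold.

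Of the auxiliary calcium channel subunits, Cacnb3 had the second smallest P value of all members. It had 7298, 6310 and 6991 with the transgene, against 8058, 7219 and 7323 without, so TG replicate 1 lay within the WT range and the other TG mice below it. Its log2 fold change was -0.13 (standard error 0.06, unadjusted P = 0.0596, adjusted P = 0.971 by limma) and ranged from -0.18 to -0.08 when mice were left out in turn. The unadjusted P value was under 0.05 in 7 of 20 alternatives, and the adjusted ones of these 20 lay between 0.576 and 1.00. Cacnb4, mutated in the lethargic mouse, had 7293, 7690 and 7866 with the transgene, against 7138, 7373 and 7313 without. The log2 fold change was 0.07 (standard error 0.05). Cacnb1 had 6244, 5812 and 5988 with the transgene, against 6052, 6294 and 6432 without, and its log2 fold change was -0.06 (standard error 0.05). The groups of both genes overlapped, and Cacnb2 had a value of 0.05. Cacna2d1 had 6431, 5937 and 6913 with the transgene, against 6047, 5952 and 5930 without, and 2 of the 3 TG mice lay above the narrow WT range (log2 fold change 0.10, standard error 0.06, unadjusted P = 0.0998 by limma). Cacna2d3, the most abundant of its family, had 5432, 6972 and 6327, against 6376, 6051 and 6586, so TG mice held the lowest and the highest value. Its log2 fold change was -0.03, and that of Cacna2d2 was 0.07. Cacna2d4, at 112, 129 and 158 against 160, 139 and 165, had -0.23 (standard error 0.14), and its groups overlapped.

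The third question was how far the members varied between mice of the same genotype. For the 22 abundant members the SD within a genotype had a median of 0.08 on the log2 scale, against 0.07 for the 6238 genes tested that reached this mean. Over all members, the SD was a median of 3.79 times the counting error. The ratio was highest for Scn4b, whose SD was 0.19, followed by Cacna1e (12.2 times), Cacna1g (7.51) and Cacna2d3 (7.44). For these genes the limit of the comparison is therefore the difference between mice and not the depth.

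**Figure D4:**
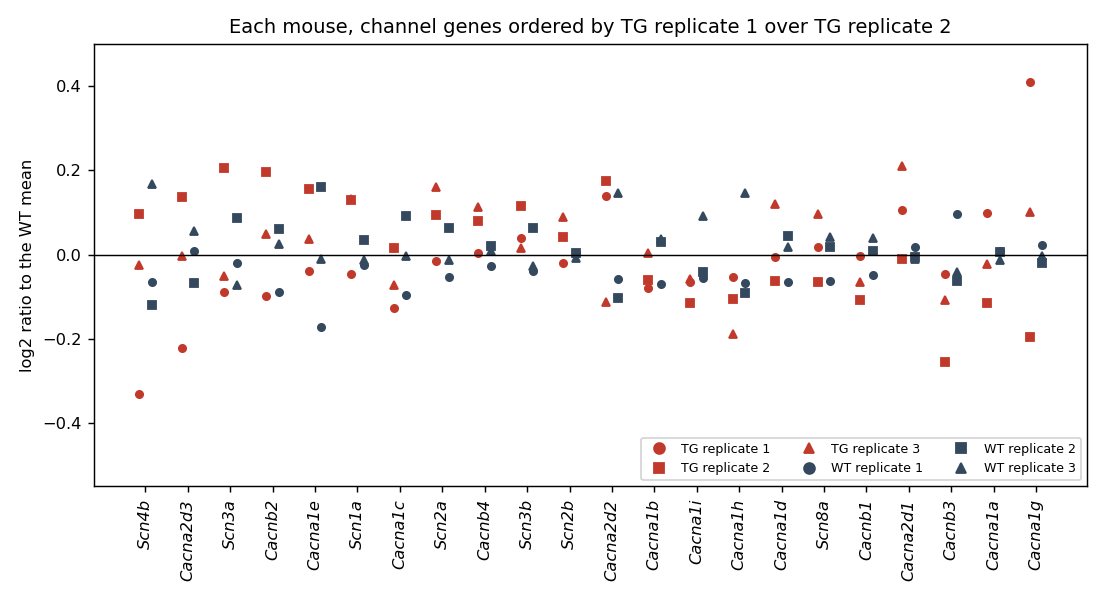
Log2 ratio of each mouse to the WT mean for the 22 abundant channel genes, ordered by TG replicate 1 over TG replicate 2 (red, Shank3 TG; dark blue, WT; circles, squares and triangles for replicates 1, 2 and 3). TG replicates 1 and 2 lie on opposite sides of the WT mean at both ends, from Scn4b (-0.33 and 0.10) to Cacna1g (0.41 and -0.20).

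TG replicate 1 had the lowest value of the 6 mice in 9 of the 28 members (32.1%) and TG replicate 2 in another 8 (28.6%), against 18.6% and 18.9% of all genes tested. Among the 22 abundant members, the log2 ratio of TG replicate 1 to TG replicate 2 was -0.43 for Scn4b, -0.36 for Cacna2d3, -0.30 for Scn3a and -0.29 for Cacnb2, and at the other end 0.21 for Cacnb3, 0.21 for Cacna1a and 0.60 for Cacna1g.

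Marker genes of the tissue moved between the same mice. In TG replicate 1, 16 of 16 medium spiny neuron markers lay below the WT mean, and in TG replicate 2, 16 of 16 lay above it. The summed level of these markers was 202061, 272189 and 231760 in TG replicates 1, 2 and 3, against 238073, 247986 and 274329 in WT replicates 1, 2 and 3. The mice with the lowest and the highest sum, TG replicate 1 and WT replicate 3, were also those with the lowest and the highest Scn4b. The median log2 ratio of TG replicate 1 to TG replicate 2 was -0.44 over the medium spiny neuron markers and 0.40 over 12 cortical excitatory neuron markers, of which 0 lay above the WT mean in TG replicate 2 and 11 in TG replicate 1. Of 8 thalamic markers 7 lay above the WT mean in TG replicate 1, and their summed level was 3784 in that mouse and between 3082 and 3424 in the others. Of 19 choroid plexus markers 19 lay above the WT mean in TG replicate 1, where Cacna1g also had its highest value. In TG replicate 2, where Cacna1g had its lowest value, 14 of the 19 lay above it. The striatal interneuron markers summed to 11464 in TG replicate 1 and to 12314 to 13108 in the others. For oligodendrocytes, astrocytes, microglia, endothelial cells and smooth muscle the median log2 ratio of TG replicate 1 to TG replicate 2 was 0.0066, 0.08, -0.06, 0.12 and 0.33. What links these markers to the channel genes was not tested. Once the summed medium spiny neuron markers entered the model as a covariate, which was decided on after the values were known, the log2 fold change of Scn4b was 0.04 and that of Cacna1g -0.03. With the choroid plexus markers as the covariate these values were 0.04 and -0.04, and with the cortical markers -0.09 and 0.11. The choroid plexus sum was far higher in TG replicate 1 than in any other mouse, so that covariate largely sets this mouse apart. Leaving out TG replicate 1 gave 0.04 for Scn4b and -0.05 for Cacna1g. In each of the 3 fits with a covariate, 0 members had an adjusted P value under 0.05. Of all genes tested, 5, 1 and 4 did with the medium spiny neuron, choroid plexus and cortical covariates.

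**Figure D5:**
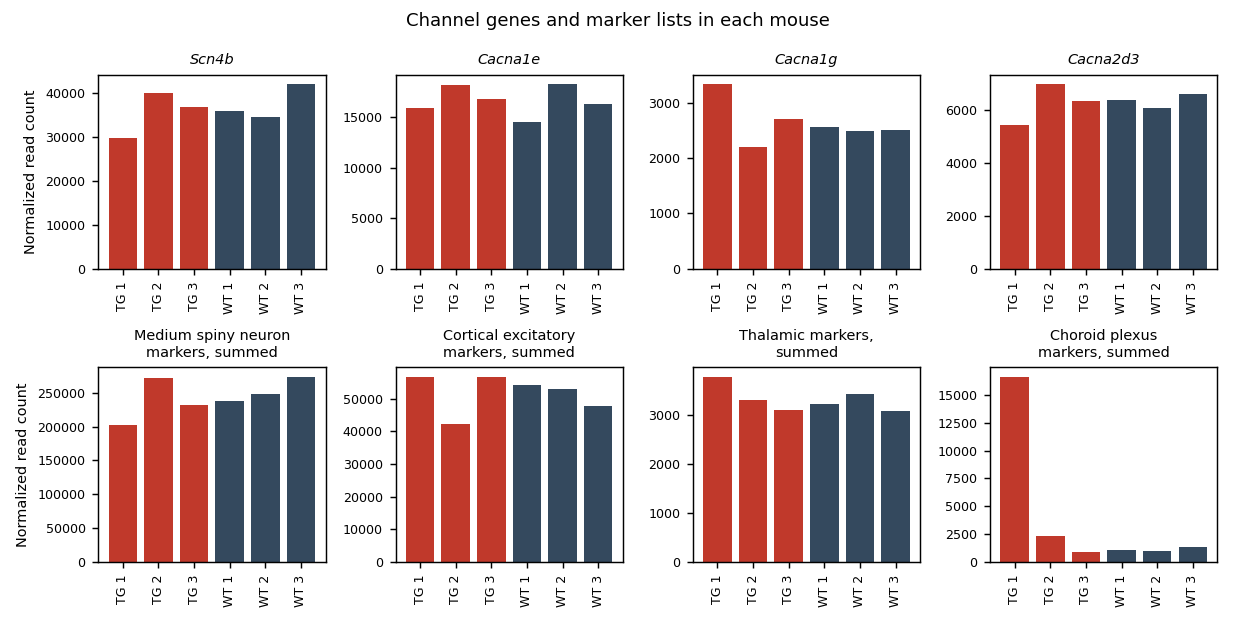
Normalized read counts in each mouse (red, Shank3 TG; dark blue, WT) of 4 channel genes and summed over 4 lists of marker genes. Scn4b is lowest in TG replicate 1, where the medium spiny neuron markers are also lowest (202061). Cacna1g is highest in that mouse, where the choroid plexus markers reach 16650 and the cortical markers are highest (56826). Cacna1g is lowest in TG replicate 2, where the cortical markers are lowest (42142) but the choroid plexus markers are second highest (2327).

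Genes whose products act with the channels were read in the same way. Over all genes tested, 0.00568% passed the adjusted threshold of 0.05 by limma. The unadjusted one was passed by 4.31%, with 1.98% higher and 2.33% lower, and the counts below stand beside these shares. Of 16 partners of sodium channels, which anchor them at the axon initial segment or shape their inactivation, 0 passed the adjusted or the unadjusted threshold of 0.05 by limma, and their log2 fold changes lay between -0.08 and 0.14 (median 0.01). The higher gene with the smallest P value was Fgf12, an intracellular fibroblast growth factor homologue that binds the sodium channel tail, at 4078, 3457 and 4019 with the transgene and 3693, 3515 and 3280 without (log2 fold change 0.14, standard error 0.07). The lower one was Sptbn4, the spectrin of the axon initial segment, at 9452, 9485 and 9403 with the transgene and 9427, 9933 and 10557 without (log2 fold change -0.08, standard error 0.05). The groups of both genes overlapped. Ank3, whose product ankyrin-G clusters sodium channels, had -0.01. Of 31 partners of calcium channels, 0 passed the adjusted threshold and 1 the unadjusted one, which was Cacng7, a γ subunit relative that serves AMPA receptors, at 4779, 4025 and 4106 with the transgene, against 5306, 5045 and 4548 without. Its groups overlapped, and its log2 fold change was -0.21 (standard error 0.08, unadjusted P = 0.0189, adjusted P = 0.971 by limma). The higher partner with the smallest P value was Stac3, an adaptor of L-type channels, at 166, 190 and 226 with the transgene and 166, 164 and 165 without (log2 fold change 0.22, standard error 0.12). The complex of the sodium leak channel had log2 fold changes between 0.004 and 0.10 in its 4 genes tested, led by Nalcn, the pore, at 0.10 (standard error 0.05) with values of 4290, 4661 and 4663 against 4035, 4332 and 4313, and none passed the unadjusted threshold by limma.

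Cacnb3, Cacna1i and Scn8a lie on chromosome 15 like Shank3, 9.07, 9.10 and 11.3 Mb away from it, and their log2 fold changes are those given above, -0.13, -0.08 and 0.02. Exons of 9 members overlap exons of other genes of the table, each on the opposite strand, and the library kit does not mark strand. The overlap took 16.0% of the exon length of Cacnb4, more of that of Cacna1s, and 7.32% or less of that of Cacna1a, Cacna1d, Cacna1h, Cacna2d2, Cacnb1, Cacnb2 and Scn9a. How many reads these stretches contributed was not tested.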

How the data were processed

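The authors prepared libraries with an Illumina TruSeq v2 kit, which does not mark strand, sequenced paired 101-base reads, trimmed them with Trimmomatic 0.35, aligned them with TopHat2 2.1.0 to the GRCm38 mouse genome and counted reads per gene with HTSeq. The deposited values are gene counts that the authors divided by DESeq2 size factors, held here as the unit signal, a read count per gene normalized by library. The HTSeq version, its strand setting and the annotation release are not given in the sources used here. The deposited table pairs values with Ensembl identifiers, and 45229 of 46078 matched GENCODE M21, from which symbols, positions and exon lengths were taken.

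Genes with a mean of at least 10 were tested two-sided on log2(value + 1) by limma 3.58.1 (R 4.3.3, trended prior variance), followed by Benjamini-Hochberg adjustment over all 17605. Whole reads were recovered from the steps of the values: within 0.01, 100% came out whole. EdgeR 4.0.16 and DESeq2 1.42.0 were run on these reads as alternatives, beside limma-voom, other pseudocounts, filters and scalings, covariates, a replicate block and leaving out each mouse. EdgeR called 1 gene of 17605, DESeq2 called 7, and DESeq2 with prior and empirical null called 15. The fit was tested on simulated data. The 3 mice per group are separate animals, with recovered totals of 27689589 to 36647626 reads. The intervals given come from limma and include the spread between mice of the same genotype, not counting error alone.

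Every member described was named, and 2 genes that meet the rule are not reported here. Values by mouse are given for at least 10 with the smallest P values and 1 of each family, for the most abundant per family, and for the higher and the lower partner gene of smallest P value. Members, gene lists and tests were chosen with earlier results of these data known. Promoters came from RefSeq (GRCm38.p6). Two-sided exact permutation tests accompany single genes.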

Additional observations from a re-analysis of the deposited data

How the results depend on the processing

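Over 20 alternatives and 557 values of single members, 0 members had an adjusted P value under 0.05 by limma, edgeR or DESeq2, and the lowest adjusted P value was 0.576 (Cacnb3, medium spiny neuron covariate, added after seeing the data). The sign turned in 22 values of 11 members, and 17 members kept theirs. With the choroid plexus covariate the log2 fold change was -0.039 for Cacna1g, -0.013 for Cacna2d2, 0.066 for Cacna2d3 and 0.038 for Scn4b, and with the medium spiny neuron covariate -0.027 for Cacna1g, 0.057 for Cacna2d3 and 0.039 for Scn4b. With the cortical covariate these 4 genes kept their sign (0.11 for Cacna1g, 0.069 for Cacna2d2, -0.032 for Cacna2d3 and -0.087 for Scn4b). When mice were left out in turn, it ranged from -0.069 to 0.039 for Cacna1a, -0.033 to 0.058 for Cacna1d, -0.025 to 0.14 for Cacna1e, -0.047 to 0.26 for Cacna1g, -0.11 to 0.069 for Cacna2d3, -0.023 to 0.12 for Cacnb2, -0.068 to 0.079 for Scn3a, -0.17 to 0.041 for Scn4b, -0.022 to 0.059 for Scn8a and -0.17 to 0.25 for Scn9a. The count of members higher at an unadjusted P value under 0.05, 1 in the main analysis, was 0 with a mean of 50 or more and with DESeq2, 2 with each of the choroid plexus, cortical and medium spiny neuron covariates, and 0 to 2 with mice left out. Over all genes the share was 2.29%, 2.54% and 3.37% with these covariates and 1.48% to 2.99% with mice left out, against 1.98% in the main analysis. It was 2.01% with a mean of 50 or more and 1.15% with DESeq2. Scn10a was under this threshold in 13 of the 19 alternatives that tested it. With the choroid plexus covariate and without TG replicate 1, the higher members were Scn1a and Scn2a instead. Without TG replicate 2 they were Cacna1g and Cacna2d1, and in DESeq2 with prior and empirical null it was Cacna2d1. The count of lower members, 0 in the main analysis, was 1 without the filter and 1 with DESeq2 with prior and empirical null. Over all genes these settings had 2.25% and 3.16%, against 2.33% in the main analysis. The count was 2 with the choroid plexus covariate, 1 with the cortical covariate and 1 with the medium spiny neuron covariate. Over all genes the shares were 3.87%, 2.81% and 4.43% with these covariates. With mice left out, 0 to 1 members and 1.35% to 4.55% of all genes were lower. Without overlap, 0 members were lower on library totals, 2 to 5 with mice left out, and 1 to 5 were higher, where 8.37% to 13.0% of all genes were lower and 8.63% to 12.6% higher with mice left out. Among the channel partners (16, 31 and 4 genes tested), 0 to 3 were higher and 0 to 3 lower at the unadjusted threshold with mice left out. Beside them stand the shares of 1.48% to 2.99% and 1.35% to 4.55% of all genes. The cause of these shifts was not tested. The setting with a mean of 50 or more holds fewer genes, and the fits with mice left out hold fewer mice. In the paired fit with the replicate number as a block, 1 member was lower (Cacnb3) and 1 higher (Scn10a). Over all genes tested, 3.2% were lower and 2.6% higher in that fit. Same-numbered libraries correlated at 0.05, 0.02 and 0.09 in their deviations, and differently numbered ones at -0.12 to 0.08. The labels give no shared litter or day, so the numbers were not used as pairs. Counting error is close to or above the spread between mice for Scn10a, Cacna1s, Cacna1f and Scn7a (0.441 to 1.16 times).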

Other observations

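Both sodium channel α subunits below the mean of 10 were seen in few reads. Scn11a had 12, 9 and 6 recovered reads in TG replicates 1, 2 and 3 and 6, 5 and 6 in WT replicates 1, 2 and 3, and lies beside Scn10a on chromosome 9.

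Several calcium channel genes have another member as close neighbour. Cacna1c and Cacna2d4 lie 40.1 kb apart on opposite strands of chromosome 6, with levels of 202 and 15.2 normalized read counts per kb, and Cacna2d3 and Cacna1d lie 318 kb apart on chromosome 14, with 721 and 177.

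Of 8 microglia markers, 8 had a log2 fold change below 0, with a median of -0.12. An unadjusted P value under 0.05 by limma was seen for 4 of them, C1qa, C1qb, C1qc and Cx3cr1, with 0 passing the adjusted threshold. Over all genes tested, 49.2% were above 0 and 2.33% were lower at the unadjusted threshold. The summed level of these markers was 12116 to 13029 in TG mice and 13153 to 13787 in WT mice, so these sums did not overlap. Of all single genes tested, 10.1% had no overlap in either direction. The list was 1 of 10 marker lists examined. Of the 18 choroid plexus markers tested, 16 had a log2 fold change above 0, with a median of 0.84. Among them 4 were higher at an unadjusted P value under 0.05 by limma, against 1.98% of all genes tested. The summed level of the 19 listed markers was 16650, 2327 and 879 in TG replicates 1, 2 and 3, against 981 to 1288 in WT mice. TG replicate 3 thus had the lowest sum of all mice, and the excess lay mainly in TG replicate 1. Of the 16 medium spiny neuron markers, 14 had a log2 fold change below 0, with a median of -0.13, and 0 had an unadjusted P value under 0.05. The TG mice were not alike, as 16 of 16 lay below the WT mean in TG replicate 1 and 16 of 16 above it in TG replicate 2.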
